A study of Homo sapiens with 6 samples.

Results

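The integrin and laminin subunit genes were examined in A549-GFP cells and A549-TIPARP cells. Genes were chosen by their symbol in the deposited tables, as that of an integrin alpha or beta chain or of a laminin alpha, beta or gamma chain, and 37 of the 53826 entries are described, 26 integrin subunits and 11 laminin subunits. The parental cells, A549, are an established line from a human adenocarcinoma of the lung. A549-TIPARP cells carry TIPARP, a mono-ADP-ribosyltransferase, in a pMXs retroviral vector, and A549-GFP cells carry GFP in the same kind of vector, so that both lines had been transduced and kept as stable lines. RNA was sequenced in 3 libraries of each line, numbered as experiments 1 to 3, and values listed for the GFP libraries or the TIPARP libraries below follow that order. The sources used here do not say whether a line was a clone or a pool, or whether the 3 libraries came from separate cultures, so the p-values measure the spread between these libraries. The comparison of the lines asks which genes differ with the TIPARP transgene, and here it was made for the receptors and ligands of the basement membrane.

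Integrins are cell surface receptors made of 1 alpha chain and 1 beta chain, which bind the extracellular matrix outside the cell and the actin or keratin cytoskeleton inside it. Laminins are secreted trimers of an alpha, a beta and a gamma chain, and form the sheet of the basement membrane on which epithelial cells sit. Epithelial cells hold on to laminin mainly with integrins that contain ITGA3 or ITGA6, and ITGA6 with ITGB4 anchors the keratin network at hemidesmosomes.

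Levels are given as TPM, a gene's part of all transcripts in a library after correction for transcript length, scaled to the same total in each library, so that levels of different subunits can be set side by side. The tables list no value under 1 TPM, and a gene listed at 1 TPM may have had any level from 0 to 1. Genes above 2 TPM in at least 1 library were kept for the comparison, 13181 in all. TPM does not keep the number of reads, so the depth behind a value is unknown. In such bulk samples, fewer cells of a type and less RNA per cell cannot be told apart. TIPARP itself had 6.79, 11.4 and 3.68 TPM in the GFP libraries, against 131, 90.5 and 123 TPM in the TIPARP libraries. It rose 17.2-fold between the geometric means (limma adjusted p = 0.0125). Over the alternatives tried its adjusted p-value ran from 0.00989 to 0.614. All 7 epithelial markers examined were kept, led by KRT18 and KRT8, whereas NKX2-1, SFTPB, SFTPC and SLC34A2 of the lung epithelial lineage were listed at 1 TPM, the floor, in all 6 libraries. The other lineage marker examined, NAPSA, was kept, with from 1.03 to 4.43 TPM. The 7 endothelial markers were at 1 TPM throughout. Of 7 fibroblast markers 1 was kept, COL1A1, with at most 2.56 TPM. Of 7 leukocyte and platelet markers 2 were kept, CD14 and GP1BB, at most at 5.63 TPM, with PTPRC at 1 TPM throughout.

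A549-GFP replicate 2 stood apart. Across the genes kept, it deviated from the mean of its line by 0.621 on the log2 scale (root mean square), where the other 5 libraries had from 0.185 to 0.4. It had the highest value of the 6 libraries for 14 of the 17 subunits kept, against 52% of all genes kept. The exceptions were ITGA6, ITGA7 and LAMC1. Its summed TPM of the 7 epithelial markers was 8351, where the other libraries lay between 16520 and 21250. KRT8 and KRT18 carry this sum, while CDH1, CLDN7 and ESRP1 of the same list were highest in A549-GFP replicate 2 (CDH1 with 142 TPM, against 61.0 to 114 TPM elsewhere). KRT19, like KRT8 and KRT18, was lowest there, and EPCAM lay within the range of the other libraries. KRT19 had 4.575, 2.539 and 5.357 TPM in the GFP libraries, against 19.25, 18.98 and 10.87 TPM in the TIPARP libraries. Its libraries thus did not overlap between the lines (limma unadjusted p = 0.000408, adjusted p = 0.283). Values without A549-GFP replicate 2 are given below for many of the subunits and lists. Leaving out another library moved some of these folds as far or further, and the ranges for the subunits are given at the end. The part of this library's state in the results was not tested.

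Of the 26 integrin subunits, 11 were kept (ITGA1, ITGA2, ITGA3, ITGA5, ITGA6, ITGA7, ITGAE, ITGAV, ITGB1, ITGB4 and ITGB5). ITGA2B, ITGA4, ITGA8, ITGA9, ITGAD, ITGAX, ITGB3, ITGB6 and ITGB7 were listed at 1 TPM in every library. ITGA10, ITGA11, ITGAL, ITGAM, ITGB2 and ITGB8 had a value above 1 TPM in at least 1 library but none above 2 TPM. The set without a level above 2 TPM thus held the leukocyte chains ITGAL, ITGAM, ITGAX, ITGAD and ITGB2, the platelet pair ITGA2B and ITGB3, and the epithelial chain ITGB6, a partner of ITGAV. Of the 11 laminin subunits, 6 were kept (LAMA3, LAMA5, LAMB1, LAMB2, LAMB3 and LAMC1). LAMA1, LAMA2, LAMA4, LAMB4 and LAMC3 were listed at 1 TPM in all 6 libraries.

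**Figure D1:**
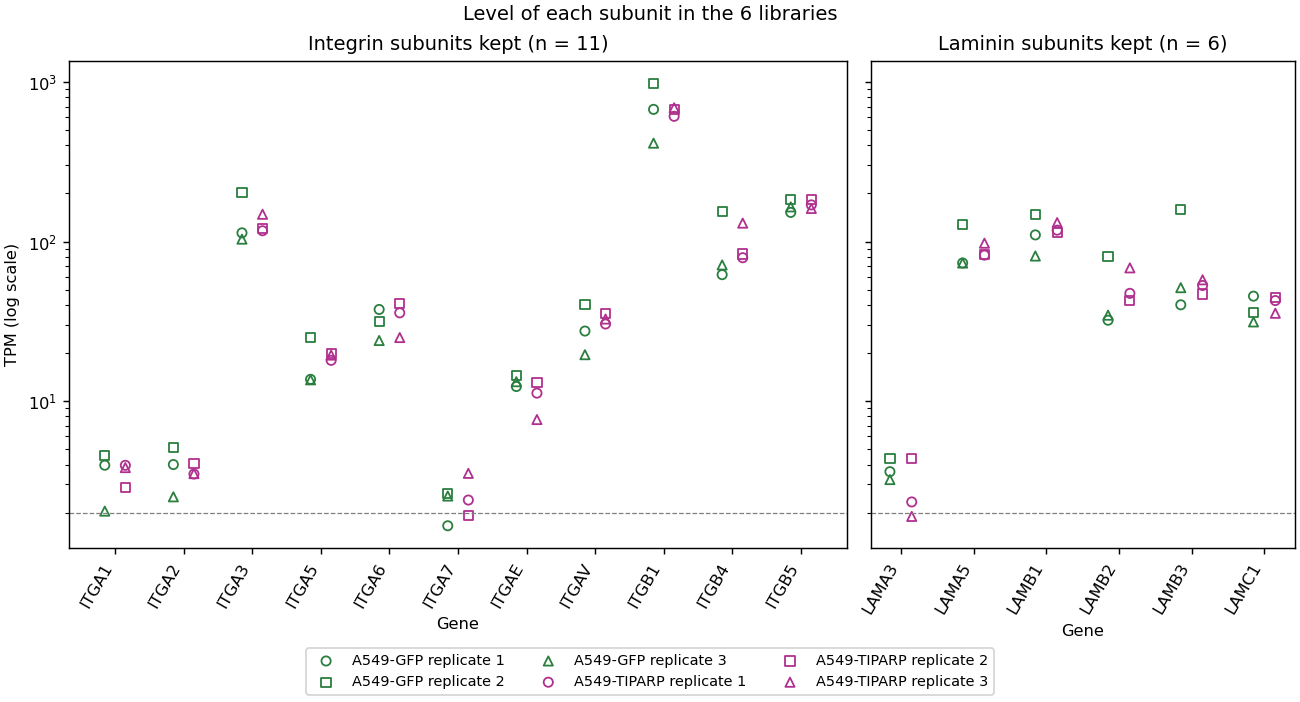
TPM (log axis) of the 17 subunits kept, 1 point per library, with green for A549-GFP, magenta for A549-TIPARP, and symbols for the replicate number; the dashed line marks 2 TPM. The points of the lines overlap for every subunit, and the green square of A549-GFP replicate 2 lies far above the other A549-GFP points for LAMB3.

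No integrin subunit differed between the lines by the tests used. By limma, the adjusted p-value was under 0.05 for 0 of the 11, and the unadjusted one was under 0.05 for 0 of the 11 as well. Over all genes these shares were 0.0152% and 3.85%. None was past 2-fold, where 1.53% of all genes were past 2-fold higher and 0.432% past 2-fold lower in A549-TIPARP cells. For none of the 11 did all libraries of one line lie above all of the other, against 5.36% of all genes higher and 3.54% lower in A549-TIPARP cells. The difference of the mean log2 TPM ran from -0.35 for ITGAE to 0.24 for ITGAV, with a median of 0.079, beside -0.066 over all genes kept. The mean was higher in A549-TIPARP cells for 8 of the 11, beside 40.1% of all genes, and for 10 of the 11 after rescaling each library by the median ratio of its genes to their mean, beside 49.9% of all genes. The count rested on single libraries, since it was 3 of the 11 without A549-GFP replicate 3, 5 without A549-TIPARP replicate 2 and 10 without A549-GFP replicate 2. For 10 of the 11 the standard error was larger than the difference itself. On log2(TPM + 1), the 95% intervals of all 11 lay within 2-fold in both directions with all libraries. Without A549-GFP replicate 2 the interval of ITGB4 reached 1.11, and without a pseudocount that of ITGA7, a low transcript, reached 1.002.

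Among the beta chains, ITGB1 was the most abundant integrin transcript, at rank 196 of the 13181 genes by mean TPM. ITGB1 is the shared beta chain of the collagen, laminin and fibronectin receptors. It had 674, 983 and 414 TPM in the GFP libraries, against 609, 671 and 689 TPM in the TIPARP libraries. All 3 A549-TIPARP values lay between the lowest and the highest A549-GFP value. The limma log2 fold change on log2(TPM + 1) was 0.014 (standard error 0.28, 95% interval -0.63 to 0.66, adjusted p = 0.998), and without A549-GFP replicate 2 it was 0.31 (adjusted p = 0.682). Without A549-GFP replicate 3 it was instead -0.31 (limma adjusted p = 0.597).

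ITGB5, which pairs with ITGAV as a vitronectin receptor, was even between the libraries, with 152, 184 and 165 TPM in the GFP libraries, against 170, 183 and 161 TPM in the TIPARP libraries. Its log2 fold change had the narrowest interval of the 17 subunits, from -0.32 to 0.40. ITGB4, the long-tailed chain of hemidesmosomes, was far less even, with 62.0, 154 and 71.3 TPM in the GFP libraries, against 79.2, 83.4 and 130 TPM in the TIPARP libraries. A549-GFP replicate 2 and A549-TIPARP replicate 3 were the high libraries of the lines, and the lines overlapped. ITGB4 had a log2 fold change of 0.11 with a standard error of 0.35 (limma adjusted p = 0.995), and 0.51 without A549-GFP replicate 2 (standard error 0.24, limma adjusted p = 0.537).

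Among the alpha chains, those of laminin receptors led. ITGA3 had 113, 202 and 104 TPM in the GFP libraries, against 117, 121 and 148 TPM in the TIPARP libraries. It took from 50.5% to 62.0% of the summed TPM of the 8 alpha chains in a library. ITGA6 had 37.5, 31.6 and 24.0 TPM in the GFP libraries, against 35.7, 40.8 and 25.0 TPM in the TIPARP libraries, and was the alpha chain of rank 2 in 4 of the libraries, while ITGAV stood above it in A549-GFP replicate 2 and A549-TIPARP replicate 3. ITGA7, best known as the laminin receptor of muscle, stayed between 1.65 and 3.52 TPM. The log2 fold changes of ITGA3, ITGA6 and ITGA7 were -0.060, 0.12 and 0.13, with standard errors of 0.26, 0.25 and 0.25. Without A549-GFP replicate 2 that of ITGA3 turned to 0.24, and those of ITGA6 and ITGA7 were 0.14 and 0.21.

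ITGA5, the fibronectin receptor chain, had 13.7, 25.2 and 13.6 TPM in the GFP libraries, against 18.0, 19.9 and 19.4 TPM in the TIPARP libraries. ITGAV, which binds vitronectin and latent TGF-beta, had 27.5, 40.1 and 19.5 TPM in the GFP libraries, against 30.4, 35.5 and 32.7 TPM in the TIPARP libraries. In both genes the 3 A549-TIPARP libraries lay close together, above A549-GFP replicates 1 and 3 and below replicate 2. Their log2 fold changes were 0.18 and 0.23 with all libraries, and 0.46 and 0.48 without A549-GFP replicate 2 (limma adjusted p = 0.351 and 0.449). They were instead 0.036 and -0.017 without A549-GFP replicate 3, and 0.041 and 0.22 without A549-GFP replicate 1. The collagen receptor chains ITGA1 and ITGA2, neighbouring genes on chromosome 5, were low, from 2.04 to 4.56 TPM and from 2.51 to 5.13 TPM, with log2 fold changes of 0.047 and -0.023, and of 0.22 and 0.16 without A549-GFP replicate 2. Without A549-GFP replicate 3 these were instead -0.215 and -0.242. ITGAE, known as the E-cadherin receptor chain of intraepithelial lymphocytes, had 12.3, 14.4 and 13.2 TPM in the GFP libraries, against 11.2, 13.1 and 7.65 TPM in the TIPARP libraries, while its partner chain ITGB7 was listed at 1 TPM throughout. The log2 fold change of ITGAE, -0.32 (standard error 0.24, limma adjusted p = 0.994), was the lowest of the integrin subunits with all libraries. It was -0.48 without A549-TIPARP replicate 2. Without A549-TIPARP replicate 3 it was -0.12, and that of ITGA3, at -0.17, was lower.

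The laminin subunits did not differ by the tests used either. None of the 6 was past 2-fold in either direction, none had an adjusted or an unadjusted limma p-value under 0.05, and the libraries of the lines overlapped for all 6. Past 1.5-fold was none of the 17 subunits, integrin or laminin, beside 5.7% of all genes past 1.5-fold higher and 3.02% past 1.5-fold lower. In other settings 1 laminin subunit passed it, LAMB2 higher without A549-GFP replicate 2, LAMA3 lower without A549-TIPARP replicate 2, and LAMB3 lower without A549-GFP replicate 1 or 3 or with arithmetic means of TPM. The differences of the mean log2 TPM of the laminin subunits ran from -0.47 for LAMA3 to 0.21 for LAMB2, with a median of 0.058. The mean was higher in A549-TIPARP cells for 3 of the 6, and for 4 of the 6 after the same rescaling. On log2(TPM + 1), the 95% intervals of LAMA5, LAMB1 and LAMC1 lay within 2-fold in both directions, and those of LAMB2 and LAMB3 did not. The interval of LAMA3 lay within 2-fold on that scale (-0.97 to 0.29) but not without a pseudocount (-1.31 to 0.38), since the pseudocount shrinks the differences of low transcripts.

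The most abundant chain of each kind belonged to the trimer of LAMA5, LAMB1 and LAMC1, a main laminin of adult epithelial basement membranes. LAMA5 had 73.4, 128 and 73.3 TPM in the GFP libraries, against 82.2, 82.5 and 97.6 TPM in the TIPARP libraries, and took from 95% to 98.1% of the alpha chain TPM. LAMB1 had 110, 147 and 81.1 TPM in the GFP libraries, against 118, 114.5 and 131 TPM in the TIPARP libraries. LAMC1 had 45.4, 35.9 and 31.3 TPM in the GFP libraries, against 42.7, 44.7 and 35.5 TPM in the TIPARP libraries. For all 3 chains the A549-TIPARP libraries lay within the range of the A549-GFP libraries. Their log2 fold changes were -0.019, 0.14 and 0.13, with limma standard errors of 0.24, 0.23 and 0.20. Without A549-GFP replicate 2 they were 0.25, 0.35 and 0.11, so that the direction of LAMA5 turned. LAMB2, the other beta chain that joins LAMA5 and LAMC1, had 32.1, 81.0 and 34.5 TPM in the GFP libraries, against 47.3, 42.8 and 68.4 TPM in the TIPARP libraries. LAMB2 had a log2 fold change of 0.20 with a standard error of 0.36 (limma adjusted p = 0.994), and 0.62 without A549-GFP replicate 2 (standard error 0.22, limma adjusted p = 0.426).

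LAMA3 and LAMB3 are chains of the laminin of hemidesmosomes, which epithelial cells lay down at wound and tumor edges. LAMB3 was less even between the A549-GFP libraries than LAMA5, LAMB1 and LAMC1. LAMB3 had 40.1, 158.5 and 51.4 TPM in the GFP libraries, against 53.0, 46.8 and 57.5 TPM in the TIPARP libraries. A549-GFP replicate 2 was the high library, 3.49-fold above the geometric mean of the others of its line, and the remaining 5 libraries overlapped between the lines. The log2 fold change of LAMB3 was -0.39 with all libraries (standard error 0.44, limma adjusted p = 0.994) and 0.20 without A549-GFP replicate 2 (standard error 0.16, limma adjusted p = 0.716), so its direction rested on that library. LAMA3 had 3.61, 4.35 and 3.22 TPM in the GFP libraries, against 2.33, 4.35 and 1.89 TPM in the TIPARP libraries. Its level was near the limit of 2 TPM, and it had a log2 fold change of -0.34 with a standard error of 0.28 (limma adjusted p = 0.994). The full-library values of ITGA5, ITGA6, ITGAE, ITGAV, ITGB4, ITGB5, LAMA3, LAMB2 and LAMB3 are given because of their levels or spread, and were chosen after the values were seen.

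**Figure D2:**
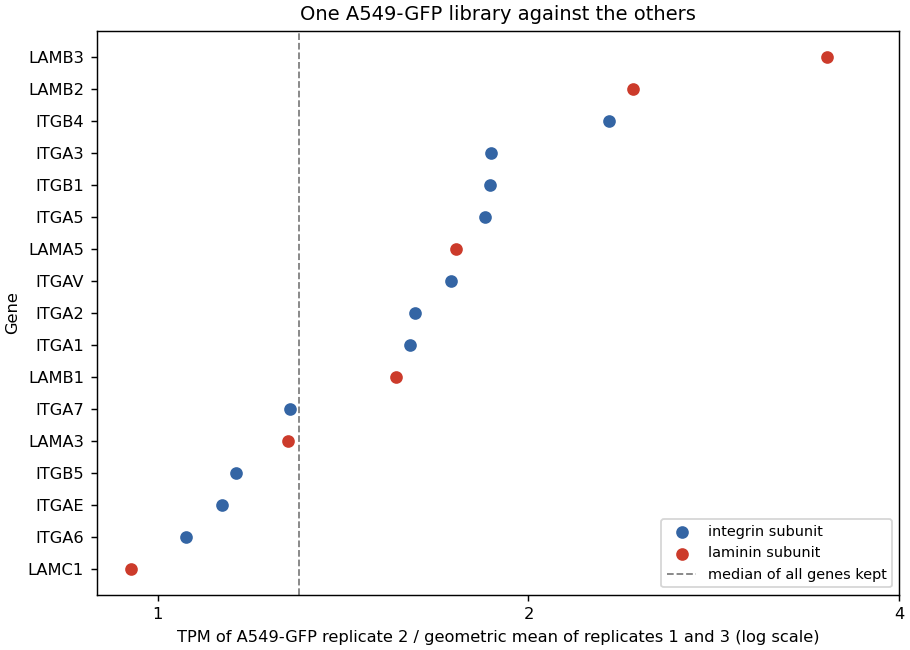
TPM of A549-GFP replicate 2 divided by the geometric mean of A549-GFP replicates 1 and 3 (log axis), for the 17 subunits kept, ordered by this ratio, with blue for integrin and red for laminin subunits; the dashed line is the median of all 13181 genes, 1.30. LAMB3 (3.49) lies farthest to the right and LAMC1 (0.952) lies at the left end.

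LAMC1 lies on the plus strand of chromosome 1 of hg38, from 183023420 to 183145592, and LAMB3 on the minus strand of chromosome 1, from 209614870 to 209652425. LAMA3 lies on the plus strand of chromosome 18, from 23689453 to 23956222.

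The bases before a start site of LAMA3, LAMB3 and LAMC1 are shown to set chains of the hemidesmosomal laminin beside an even one. They are the 250 bases upstream of a RefSeq start on GRCh38.p14, printed 5′ to 3′ on the strand of the gene, at chr18:23872770-23873019 for LAMA3, chr1:209651375-209651624 for LAMB3 and chr1:183023170-183023419 for LAMC1. Capitals mark TGANTCA, the site of AP-1, and GGGCGG, the GC box, each searched on both strands. The LAMA3 start is an internal one of its gene, and the LAMB3 start is 1 of 3 in the RefSeq table and the only one of them with TGANTCA in this window.
LAMA3: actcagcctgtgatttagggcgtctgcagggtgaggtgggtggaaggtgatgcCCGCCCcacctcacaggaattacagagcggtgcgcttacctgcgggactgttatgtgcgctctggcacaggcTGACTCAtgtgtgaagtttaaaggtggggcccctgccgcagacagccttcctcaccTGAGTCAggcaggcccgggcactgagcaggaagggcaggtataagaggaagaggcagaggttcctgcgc
LAMB3: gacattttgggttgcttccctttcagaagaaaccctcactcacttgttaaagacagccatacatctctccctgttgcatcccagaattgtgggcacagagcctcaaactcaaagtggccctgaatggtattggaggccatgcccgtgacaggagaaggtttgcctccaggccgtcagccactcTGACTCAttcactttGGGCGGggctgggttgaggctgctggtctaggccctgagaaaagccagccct
LAMC1: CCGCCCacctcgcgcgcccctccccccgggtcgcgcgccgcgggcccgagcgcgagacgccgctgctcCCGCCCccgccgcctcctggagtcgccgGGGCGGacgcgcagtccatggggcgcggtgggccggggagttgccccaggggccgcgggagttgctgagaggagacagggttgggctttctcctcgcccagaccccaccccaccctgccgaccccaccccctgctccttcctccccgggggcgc

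LAMA3 held TGANTCA at 2 places and LAMB3 at 1, starting 67 bases before the start. LAMC1 held none in this window and held GGGCGG at 3 places. A RefSeq window was on hand for 14 of the 17 subunits kept, and not for ITGA3, ITGA7 and ITGB4. These 14 had 21 windows. TGANTCA was in 2 of the 21 (9.52%), those of LAMA3 and LAMB3, beside 6.57% of all 35116 windows and 4.34% of those of the genes kept. GGGCGG was in 14 of the 21 windows (66.7%), beside 42.6% of all windows and 63.4% of those of the genes kept. These are matches of letters, and no binding was measured.

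Without A549-GFP replicate 2, the mean was higher in A549-TIPARP cells for 15 of the 17 subunits, with ITGAE and LAMA3 as the exceptions, beside 56.9% of all genes. The median difference was then 0.30 for the integrin subunits and 0.23 for the laminin subunits, beside 0.047 over all genes. In 7 subunits (ITGA3, ITGA5, ITGAV, ITGB4, LAMA5, LAMB1 and LAMB2) all 3 A549-TIPARP libraries lay above both remaining A549-GFP libraries, beside 21.2% of all genes higher and 6.42% lower. None was past 2-fold higher, beside 2.91% of all genes, or past 2-fold lower, beside 0.296%. ITGA5, ITGAV and LAMB2 had an unadjusted limma p-value under 0.05, beside 10.5% of all genes. None had an adjusted one under 0.05, which 0.0228% of all genes had, and the lowest was 0.351, for ITGA5. Leaving out a library was planned for each of the 6, and these counts rest on the choice of this one. Without A549-GFP replicate 3 in its place, the mean was higher for 3 of the 11 integrin and 2 of the 6 laminin subunits, beside 4218 of the 13181 genes, and the medians were -0.055, -0.11 and -0.17. No subunit then had all A549-TIPARP libraries above both A549-GFP libraries, beside 950 of the 13181 genes. In 1 integrin subunit they all lay below, beside 3103 of the genes. None had an unadjusted limma p-value under 0.05, beside 1085 of the genes.

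**Figure D3:**
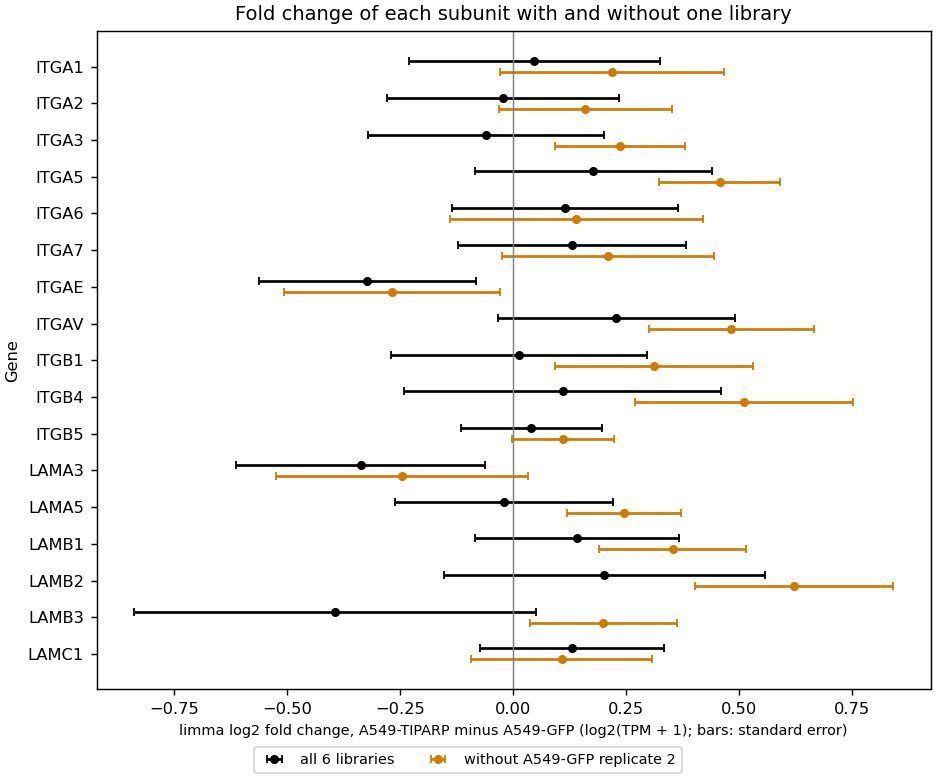
limma log2 fold change of A549-TIPARP over A549-GFP on log2(TPM + 1) for the 17 subunits kept, with bars of 1 standard error, in black with all 6 libraries and in orange without A549-GFP replicate 2. The orange points lie to the right of the black ones except for LAMC1, and ITGA2, ITGA3, LAMA5 and LAMB3 change sides, LAMB3 from -0.39 to 0.20.

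The make-up of the integrin alpha and beta and the laminin alpha and beta chains was also set side by side, as the share of the summed TPM of the class over the subunits kept, with no test. ITGB1 made up 71.3% ± 6.7 of the beta chains in A549-GFP cells and 70.9% ± 0.64 in A549-TIPARP cells (mean ± SD, n = 3). ITGA3 made up 57.4% ± 4.5 of the alpha chains in A549-GFP cells and 54.7% ± 5.4 in A549-TIPARP cells (mean ± SD, n = 3). ITGAV made up 12.8%, 12.3% and 10.8% of them in the GFP libraries and 13.7%, 14.9% and 13.4% in the TIPARP libraries, shares that did not overlap between the lines. The shares of ITGA5 among the alpha chains and of LAMB2 among the laminin beta chains did not overlap either. For ITGA5 the highest GFP value was 7.73% and the lowest TIPARP value 7.96%, and for LAMB2 they were 20.94% and 20.98%. In TPM, ITGAV, ITGA5 and LAMB2 all overlapped between the lines. Separation of 3 against 3 libraries cannot go below p = 0.10 in a two-sided exact permutation test. No like share over all genes was at hand. Among the laminin beta chains, LAMB1 had the largest share in 5 libraries, from 48.6% to 60.4%, while in A549-GFP replicate 2 LAMB3 led with 41.0% over LAMB1 with 38.1%. LAMB3 made up 22.0%, 41.0% and 30.75% of the beta chains in A549-GFP cells and 24.3%, 22.95% and 22.4% in A549-TIPARP cells. For ITGB1, ITGA3, LAMB1 and LAMB3 the shares overlapped between the lines.

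**Figure D4:**
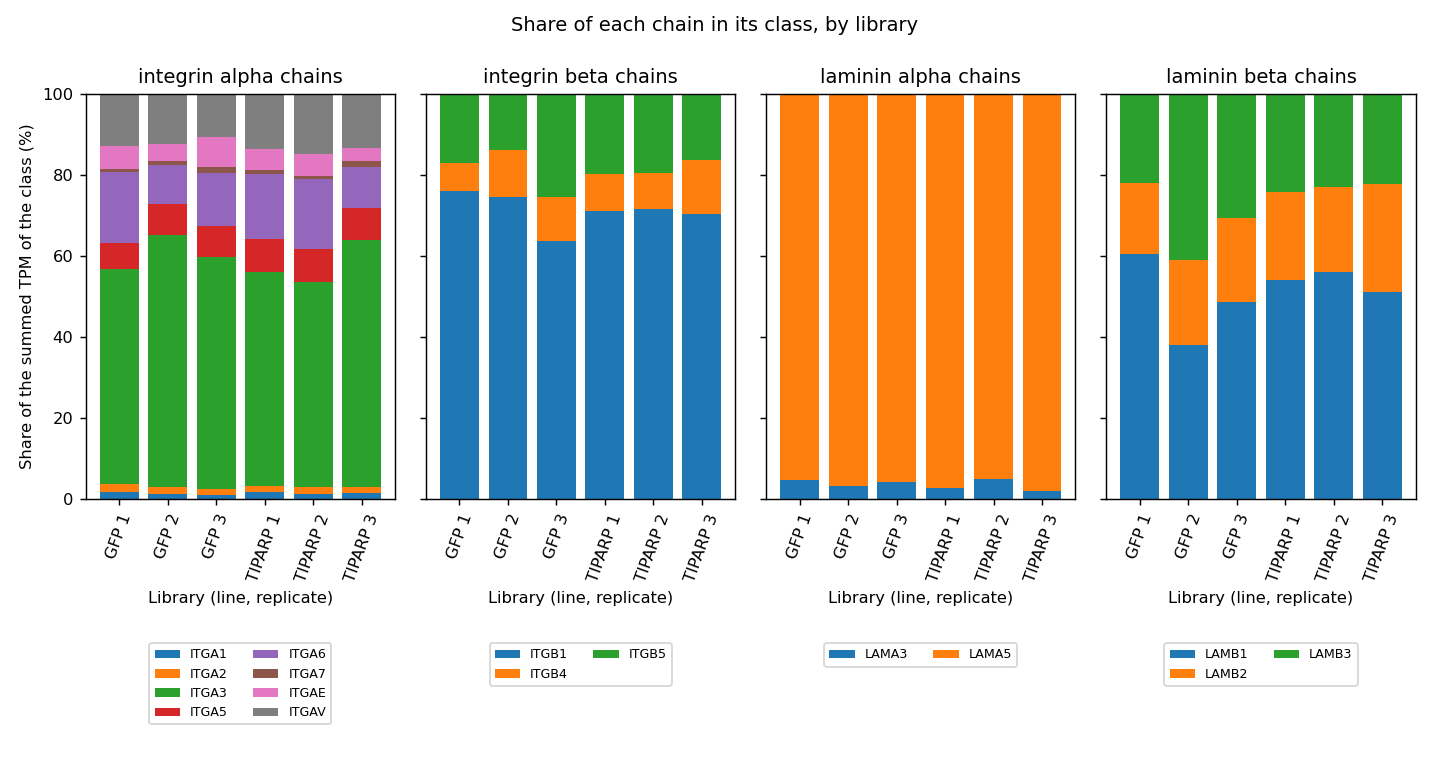
Share (%) of each subunit kept in the summed TPM of its chain class, 1 stacked bar per library, for integrin alpha and beta chains and laminin alpha and beta chains. ITGA3, ITGB1 and LAMA5 take the largest share in every library, and the LAMB3 share is from 22.4% to 24.3% in the A549-TIPARP libraries and from 22.0% to 41.0% in the A549-GFP libraries.

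The standard deviation of the log2 TPM was larger in A549-GFP cells than in A549-TIPARP cells for 13 of the 17 subunits, beside 79.6% of all genes kept. For ITGB1 it was 0.63 and 0.093, for ITGA5 0.51 and 0.076, and for LAMB3 1.06 and 0.15 (n = 3 each). For ITGA6, ITGA7, ITGAE and LAMA3 the A549-TIPARP libraries had the larger one.

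The partners of these subunits inside and outside the cell were read from the same fit, over lists chosen for their known roles. Of 21 integrin activators and adaptors kept (talins, kindlins, the ILK complex, tensins and others), none was past 2-fold, and 1 had an unadjusted limma p-value under 0.05, beside 3.85% of all genes. This was TNS3, a tensin that links integrin tails to actin. TNS3 had 64.8, 64.0 and 43.8 TPM in the GFP libraries, against 92.2, 89.7 and 85.8 TPM in the TIPARP libraries, so its libraries did not overlap (limma adjusted p = 0.895). Of 10 hemidesmosome and tetraspanin partners kept, none was past 2-fold and none had an unadjusted p-value under 0.05. After the median ratio rescaling 2 of the 10 had an unadjusted limma p-value under 0.05, beside 786 of the 13181 genes. After a correction for transcript GC content it was also 2, beside 819 of the genes. The median differences of these lists were 0.052 and 0.33 on the log2 scale. Of 12 genes kept for integrin traffic and TGF-beta release, none was past 2-fold. TGFB1, whose latent form is a ligand of integrins with ITGAV, was the 1 gene of the 12 with an unadjusted limma p-value under 0.05, beside the same 3.85%. It had 41.0, 70.1 and 44.9 TPM in the GFP libraries, against 75.4, 82.2 and 97.0 TPM in the TIPARP libraries, without overlap (limma adjusted p = 0.966). TGFB3, near the floor, went the other way without overlap. It had 1.435, 3.00 and 1.431 TPM in the GFP libraries, against 1.375, 1.246 and 1.213 TPM in the TIPARP libraries (limma adjusted p = 0.994). Over all genes, 5.36% lay higher without overlap in A549-TIPARP cells and 3.54% lower. The median difference of the 12 was 0.065.

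Of 6 laminin receptors that are not integrins, 2 were past 2-fold higher, BCAM and SDC2, beside 1.53% of all genes. With 1 library left out the count was from 0 to 2, and it was 0 without A549-GFP replicate 3 or without A549-TIPARP replicate 3. The place of SDC2 in the count depends on the floor, at which its A549-GFP values mostly lay. BCAM, the Lutheran glycoprotein, a receptor for the LAMA5 chain, had 15.4, 57.2 and 18.2 TPM in the GFP libraries, against 43.1, 34.6 and 92.9 TPM in the TIPARP libraries. Only A549-GFP replicate 2 of its line reached the range of the A549-TIPARP libraries, and BCAM was 2.05-fold higher with it and 3.09-fold higher without it (limma adjusted p = 0.994 and 0.312). SDC2, a syndecan, was near the floor of the tables, with 1.17, 1 and 1 TPM in the GFP libraries, against 2.40, 1.34 and 2.96 TPM in the TIPARP libraries (limma adjusted p = 0.994).

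Of 17 other basement membrane and cell adhesion ligands kept, 2 were past 2-fold higher, CTGF and FBLN1, beside 1.53% of all genes, and none past 2-fold lower, with a median difference of 0.30. The count past 2-fold higher was from 2 to 4 with a library left out, 4 without A549-GFP replicate 1 and 3 without A549-TIPARP replicate 3, and was 1 with arithmetic means of TPM. CTGF, a matricellular protein that binds integrins, had 11.3, 26.2 and 8.09 TPM in the GFP libraries, against 29.0, 20.8 and 43.5 TPM in the TIPARP libraries (limma adjusted p = 0.994). It was 2.22-fold higher with all libraries and 3.10-fold higher without A549-GFP replicate 2, when its libraries did not overlap. FBLN1, a fibulin of basement membranes, had 35.0, 4.29 and 33.1 TPM in the GFP libraries, against 42.0, 40.8 and 30.8 TPM in the TIPARP libraries. It was thus low only in A549-GFP replicate 2 among the 6 libraries, and its fold was 2.20 with that library and 1.10 without it. AGRN, the proteoglycan agrin, which binds laminin, had 85.5, 76.0 and 70.9 TPM in the GFP libraries, against 110, 92.3 and 101 TPM in the TIPARP libraries, without overlap (limma adjusted p = 0.994). NID1, the nidogen that links laminin to collagen IV, was listed at 1 TPM in all 6 libraries. These lists too moved when A549-GFP replicate 2 was left out. Among the hemidesmosome and tetraspanin partners, the count with an unadjusted limma p-value under 0.05 went from 0 to 6 of the 10 and the median difference from 0.33 to 0.55, and the count past 2-fold higher from 0 to 2 (CD82 and COL17A1). The place of COL17A1 depends on the floor of 1 TPM, at which both remaining A549-GFP values lay. Among the traffic and TGF-beta genes the count under 0.05 went from 1 to 3 of the 12, the median from 0.065 to 0.25, and the count past 2-fold higher from 0 to 1 (TGFB2). Among the ligands the count under 0.05 went from 2 to 7 of the 17, and among the activators and adaptors from 1 to 5 of the 21. NID2, a nidogen with the lowest p-value of these 7 ligands, was lower in A549-TIPARP cells (log2 difference -0.91), and the others of the 7 were higher. Over all genes the share under 0.05 went from 3.85% to 10.5%, the share past 2-fold higher from 1.53% to 2.91% and the median from -0.066 to 0.047. The median of the hemidesmosome and tetraspanin partners was instead 0.069 without A549-GFP replicate 3, 0.12 without A549-GFP replicate 1 and 0.13 without A549-TIPARP replicate 1. Without A549-GFP replicate 3 that of the ligands was 0.074, that of the traffic and TGF-beta genes -0.023 and that of the activators and adaptors -0.046, beside -0.17 over all genes. No member of any of the 5 lists had an adjusted limma p-value under 0.05 with all 6 libraries or with any 1 of them left out.

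Some subunits share their locus with other transcribed genes. PELO overlaps ITGA1 on the same strand and had from 18.4 to 31.3 TPM, above ITGA1 in every library, so the level of ITGA1 may hold reads of PELO if the counting did not part them. On the opposite strand, ADRM1 and LAMA5-AS1 overlap LAMA5, DLD overlaps LAMB1, GALK1 overlaps ITGB4, and BLOC1S1 and METTL7B overlap ITGA7. HASPIN overlaps ITGAE on the opposite strand too, and no level was found under that symbol. The library kit marks the strand, but the sources used here do not say whether the counting used it. The pseudogene LAMB2P1 reached 3.61 TPM, while ITGB1P1 was at 1 TPM throughout. The treatment of reads that match a gene and its pseudogene is likewise not given.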

How the data were processed

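RNA from 3 A549-GFP and 3 A549-TIPARP libraries was examined. Per the labels and the study's methods, stranded mRNA libraries were sequenced from both ends, and the authors used the Strand NGS software with its default settings to align them to hg38 transcripts. They deposited 1 table per library of log2 TPM for 53826 entries, with every TPM below 1 set to 1. The tables hold no counts, so the count-based tests foreseen for counts were not run.

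Groups and replicate numbers came from the sample titles. Genes that exceeded 2 TPM in 1 or more of the 6 libraries were kept, as the study did, which left 13181. Fold changes are ratios of geometric mean TPM. limma 3.58.1 in R 4.3.3 was run with a variance trend on log2(TPM + 1) of all genes kept, without a replicate block, with Benjamini-Hochberg adjustment over all of them, and was tested on simulated data. The 95% intervals are from the moderated fit. An exact permutation test of 3 against 3 cannot go below p = 0.10 (two-sided) and was not used. Transcript GC content was that of the longest GENCODE 44 transcript, found for 98.3% of the genes kept, with a lowess curve (span 0.3, statsmodels 0.14.6). Coordinates are those of GENCODE 44 on hg38, and promoter bases are from RefSeq.

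The 17 subunits described that lay above the TPM limit are named, and an item withheld from the text is not reported here. By rule, values in every library were given for subunits past 1.5-fold, at an unadjusted p-value under 0.05, with libraries that do not overlap, or most abundant in their class. From the other lists, members past 2-fold or at an unadjusted p-value under 0.05 are named. The subunits and the lists were chosen with earlier results of these data known. The alternatives are given after the report.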

Additional observations from a re-analysis of the deposited data

How the results depend on the processing

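None of the 17 subunits had a limma adjusted p-value under 0.05 in any of 16 alternatives, and the lowest was 0.351. Of the subunits, 4 kept 1 direction in all alternatives (ITGA5, ITGAE, LAMA3 and LAMC1). With a library left out, the log2 fold change ran from 0.036 to 0.457 for ITGA5 and from -0.476 to -0.122 for ITGAE. It ran from -0.599 to -0.156 for LAMA3 and from 0.012 to 0.273 for LAMC1. With all libraries, rescaling by the median ratio turned the log2 fold change of ITGA2 to 0.036, of ITGA3 to 0.0052 and of LAMA5 to 0.046. The GC correction turned ITGA2 to 0.088, alone and with the replicate block (0.088), and arithmetic means of TPM turned ITGB1 to -0.072. Over the 6 fits that each lacked a library, the log2 fold change ran from -0.215 to 0.220 for ITGA1, from -0.242 to 0.160 for ITGA2, from -0.241 to 0.237 for ITGA3, from -0.053 to 0.313 for ITGA6, from -0.045 to 0.274 for ITGA7, from -0.017 to 0.484 for ITGAV, from -0.311 to 0.312 for ITGB1, from -0.141 to 0.511 for ITGB4, from -0.023 to 0.111 for ITGB5, from -0.152 to 0.246 for LAMA5, from -0.073 to 0.354 for LAMB1, from -0.033 to 0.621 for LAMB2 and from -0.778 to 0.200 for LAMB3. The cause was not tested.

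The count of integrin subunits at an unadjusted p-value under 0.05 was 0 with all libraries, 1 after the GC correction (ITGAV), 0 with the GC correction and the replicate block, and from 0 to 2 with a library left out. The count whose A549-TIPARP libraries all lay above was 0, 1 after the GC correction, alone and with the replicate block, and from 0 to 4 with a library left out, and the count below was from 0 to 1. For the laminin subunits, with a library left out, from 0 to 1 had an unadjusted p-value under 0.05, from 0 to 3 lay above and from 0 to 1 below. The highest counts above and under 0.05 came without A549-GFP replicate 2. The median difference ran from -0.055 to 0.301 for the integrin and from -0.113 to 0.226 for the laminin subunits.

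The log2 fold change of TIPARP was 3.90 with no filter (adjusted p = 0.0965), 3.90 with a replicate block by experiment number (adjusted p = 0.513) and 4.01 with the GC correction and the block (adjusted p = 0.614). It ran from 3.54 to 4.24 with a library left out, with limma adjusted p-values from 0.0331 to 0.192. Deviations of same-numbered libraries from the mean of their line correlated across genes with r = 0.415, -0.486 and -0.358 in experiments 1, 2 and 3, and not every library correlated best with its own number, so the block is given only here. Against the fit without it, the block changed no call on a subunit, and with the GC correction it ended the call on ITGAV at an unadjusted p-value. With the block alone, the count at an unadjusted p-value under 0.05 went from 2 to 0 among the 17 ligands and from 1 to 0 among the 6 other laminin receptors. The no-filter fit used the 14618 entries above 1 TPM in at least 1 library. TPM keeps no depth, so counting error cannot be given for the subunits near 2 TPM.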
